A study of Strongylocentrotus purpuratus with 8 samples.

Results

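Tektins are coiled-coil proteins that form filaments along the doublet microtubules of cilia and flagella, and they were first purified from sea urchin sperm flagella. The sea urchin embryo grows motile cilia before it hatches, and the hatched blastula swims with them. Transcripts of tektins, tubulins, dyneins and other axoneme proteins are made at that stage.

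The tektin genes described here are the targets of the array whose name contains the word tektin, found by a search of the name column. There are 7 such targets of 6414 on the array, each with 2 probes, so 14 probes of 12696 in all. They are TEKTIN A1, TEKTIN B1, Tektin-B1 - S, Tektin-1 - Bos, Tektin-1 - Homo, Tektin-3 - Homo and Tektin-4. The names are spelled as the array files give them, several of them cut short. The ending Bos or Homo is the start of a name of another animal, not the source of the RNA. Tektin-1, Tektin-3 and Tektin-4 are names of mammalian members of the family. Whether TEKTIN B1 and Tektin-B1 - S stand for 1 gene was not tested, and related transcripts that bind the same probe cannot be told apart. The 2 probes of a target lay side by side on the slide in 7 of 7 pairs.

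SpRunt-1 morphants are Strongylocentrotus purpuratus embryos injected as zygotes with an antisense morpholino that blocks splicing of the transcript of SpRunt-1, a transcription factor of the Runx family. They came from 4 cultures, each from another mating pair of wild adults and each giving RNA from 3600 embryos, at the hatched blastula stage, 18 hours after fertilization at 15 °C. For the control, about 14400 untreated embryos from these cultures, of the same age and not injected, were pooled into 1 RNA. Each morphant RNA shared 2 arrays with the pool, once in Cy5 and once in Cy3, so 8 arrays gave n = 4 cultures. The injection itself and the loss of SpRunt-1 cannot be told apart in this design. A difference between mating pairs and a difference in response cannot be told apart either, because each culture was set against the pool and not against its own untreated embryos. The ratio leaves out the control's own spread.

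The arrays gave usable signal for most probes: 60.8% to 77.1% of probes were well above background in Cy3 and 51.5% to 79.5% in Cy5. All arrays lay on 1 slide, with both dye orientations in separate columns of it. Markers of the stage were present. Of 8 targets in the hatched blastula list 7 were tested, all named for the blastula proteases SPAN or hatching enzyme. These 7 had been kept for signal in either RNA on at least 4 arrays. Of them 6 were well above background in morphants on all 8 arrays. The probes for Runt itself had log2 ratios of -0.18 ± 0.27 and -0.20 ± 0.090 (SD, n = 4), with adjusted p of 0.349 and 0.119 over all probes (limma, Benjamini-Hochberg). A morpholino that blocks splicing need not change what such a probe reads.

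Of the 7 tektin targets, 5 had a probe well above background in either RNA on at least 4 arrays and were tested. TEKTIN A1 and TEKTIN B1 were higher in morphants, by 2.13-fold and 1.63-fold. Tektin-1 - Bos was about as far above the control as TEKTIN A1 on average, but its cultures were spread too widely to pass. Tektin-3 - Homo and Tektin-B1 - S did not pass. So 2 of 5 tested targets rose and 0 fell (limma with Benjamini-Hochberg adjustment over 5481 genes, threshold 0.05). Over all genes tested 5% passed, 2.96% higher and 2.04% lower, and 35.3% had an unadjusted p under 0.05, as did the same 2 tektin targets. All 5 mean ratios were above 0, where 2530 of the 5481 genes tested had a mean above 0. Of the 5 targets 3 were above 0 in all 4 cultures, against 20.9% of all genes. The median log2 ratio of the 5 was 0.71, against -0.025 over all genes. It was 0.16 with the dimmer kept probe of each target, 0.43 with the mean of the probes and 1.19 with median centring. In bulk RNA, more cells of a type and more RNA per cell cannot be told apart. Both rises lost their call with a variance trend on the mean ratio, an alternative chosen after seeing the data (adjusted p = 0.113 for each, limma). They lost it too when culture 2, 3 or 4 was left out, as did nearly all calls on the array: 274 genes passed with all cultures and 887, 1, 0 and 0 without culture 1, 2, 3 or 4.

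**Figure D1:**
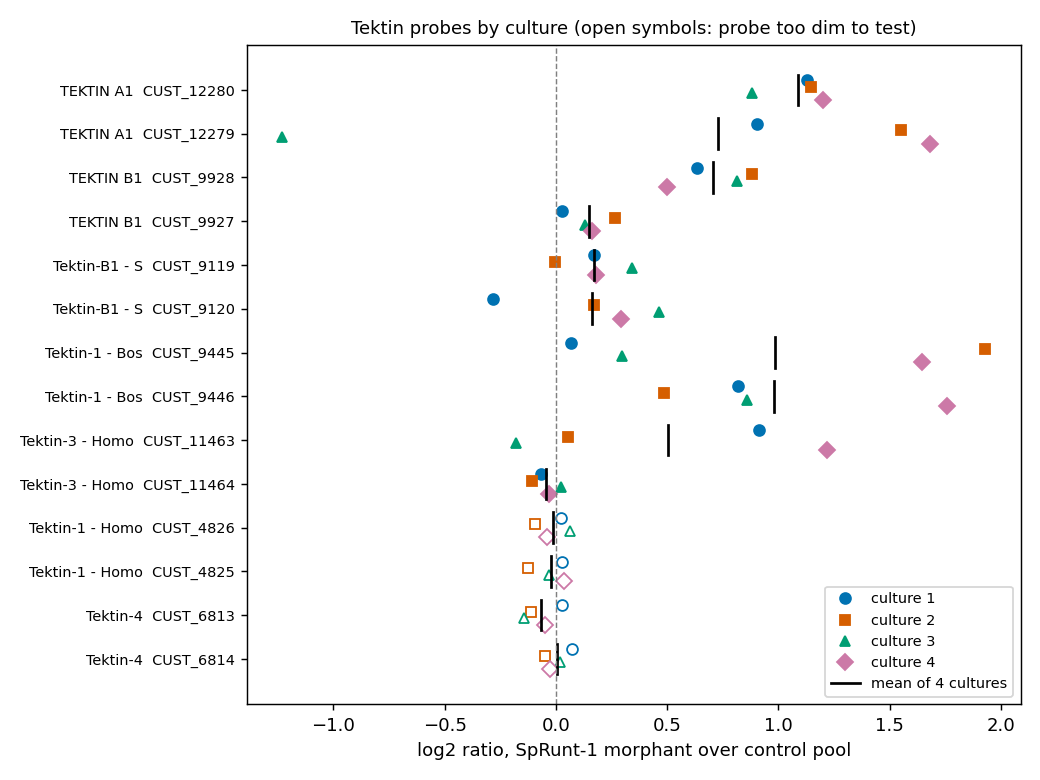
Log2 ratio of SpRunt-1 morphant over control pool (x axis) for the 14 tektin probes, 1 point for each culture (mean of its 2 dye-swap arrays) and a black line at the mean. Probe CUST_12280 of TEKTIN A1 lies between 0.88 and 1.20, while its neighbour CUST_12279 has culture 3 at -1.23; the 4 probes with open symbols were too dim to test.

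TEKTIN A1 encodes the A-type tektin subunit known from sea urchin. Its brighter probe, CUST_12280, had normalized signals of 665, 1356, 670 and 889 in the morphants of cultures 1 to 4, against 305, 612, 364 and 387 in the control pool on the same arrays. Each morphant lay above every control value, but these are repeat readings of 1 pool and not a group of samples. The share of all probes with the same pattern was not computed. The log2 ratios were 1.13, 1.15, 0.88 and 1.20 in cultures 1 to 4. Their mean was 1.09 ± 0.14 (SD, n = 4), with a 95% interval of 0.88 to 1.30, and it passed at an adjusted p of 0.0253 (limma, Benjamini-Hochberg). Of all genes tested 2.15% had a higher mean ratio, and by p TEKTIN A1 ranked 10. An F test over the 8 arrays for a difference between the 4 cultures, set against the error between dye-swap arrays, did not pass for it (adjusted p = 0.364), and it passed for 61.4% of all genes. The adjusted p was 0.0870, 0.122 and 0.0910 without culture 2, 3 or 4, and it ranged from 0.00195 to 0.400 over the alternatives run. Centring in place of loess gave a log2 ratio of 1.67, over 1.5 times as high, and moved the median of all genes to 0.10.

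The other probe of TEKTIN A1, CUST_12279, gave the same direction in 3 cultures and the opposite one in culture 3. Its signals were 551, 1090, 122 and 902 in the morphants of cultures 1 to 4, against 294, 372, 285 and 281 in the control pool. Culture 3 was the morphant that stood below the pool, and the pool itself was no lower there than on the arrays of culture 4. The log2 ratios of cultures 1, 2 and 4 were 0.91, 1.55 and 1.68, and that of culture 3 was -1.23. Both arrays of culture 3 gave the low value, -1.53 with the morphant in Cy5 and -0.92 with it in Cy3. The mean was 0.73 ± 1.35 (SD, n = 4; adjusted p = 0.388 over all probes, limma), and the cultures differed (F test, adjusted p = 4.12e-07). In culture 3 the 2 probes lay 2.11 log2 units apart, and 1.64% of the 4082 genes with 2 kept probes had a gap that large in any culture. The average difference between the probes was 0.36 ± 1.21 (exact sign-flip permutation test, two-sided, p = 0.875, adjusted to 1 over the 7 pairs).

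TEKTIN B1 encodes the B-type subunit, which pairs with the A-type in sea urchin flagella. Probe CUST_9928 had normalized signals of 242, 305, 255 and 231 in the morphants of cultures 1 to 4, against 156, 165, 145 and 163 in the control pool. Every morphant lay above every reading of the pool, again repeat readings of 1 RNA, and the share of all probes with this pattern was not computed. The log2 ratios were 0.64, 0.88, 0.81 and 0.50, highest in culture 2 and lowest in culture 4. Their mean was 0.71 ± 0.17 (SD, n = 4), with a 95% interval of 0.47 to 0.94, and it passed at an adjusted p of 0.0342 (limma, Benjamini-Hochberg). The cultures differed in the F test (adjusted p = 0.0341), while all 4 pointed the same way. The adjusted p was 0.0927, 0.130 and 0.0927 without culture 2, 3 or 4, and it ranged from 0.000982 to 0.173 over the alternatives run. With median centring the log2 ratio was 1.19 and did not pass (adjusted p = 0.0767), and with the mean of both probes it was 0.43 and passed (adjusted p = 0.0435).

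The second probe of TEKTIN B1, CUST_9927, was near background. It was well above background on 4 of 8 arrays in the morphant channel and on 0 of 8 in the control channel, so its fold has only a bound. The morphant signals were 64.4, 76.7, 69.7 and 69.6 in cultures 1 to 4, against 63.1, 63.8, 63.6 and 62.2 in the pool. The morphants lay above every reading of the pool by a small margin, and the share of all probes with this pattern was not computed. The bound on the fold was 1.09, and a rise is not established by it. That bound sets the mean morphant signal against, on each array, the higher of the control's own signal and the lowest signal well above background. The measured log2 ratio was 0.15 ± 0.097 (SD, n = 4; adjusted p = 0.191 over all probes, limma). At this brightness the value turned on the background step: it was 1.56 with plain background subtraction (adjusted p = 0.0471) and 1.31 with Agilent's own log ratio (adjusted p = 0.0519), where CUST_9928 had 1.03 and 1.04, and the adjusted p ranged from 0.0471 to 0.600 over the alternatives run. The order of the 2 probes therefore differed between background steps, and no difference between them is given.

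**Figure D2:**
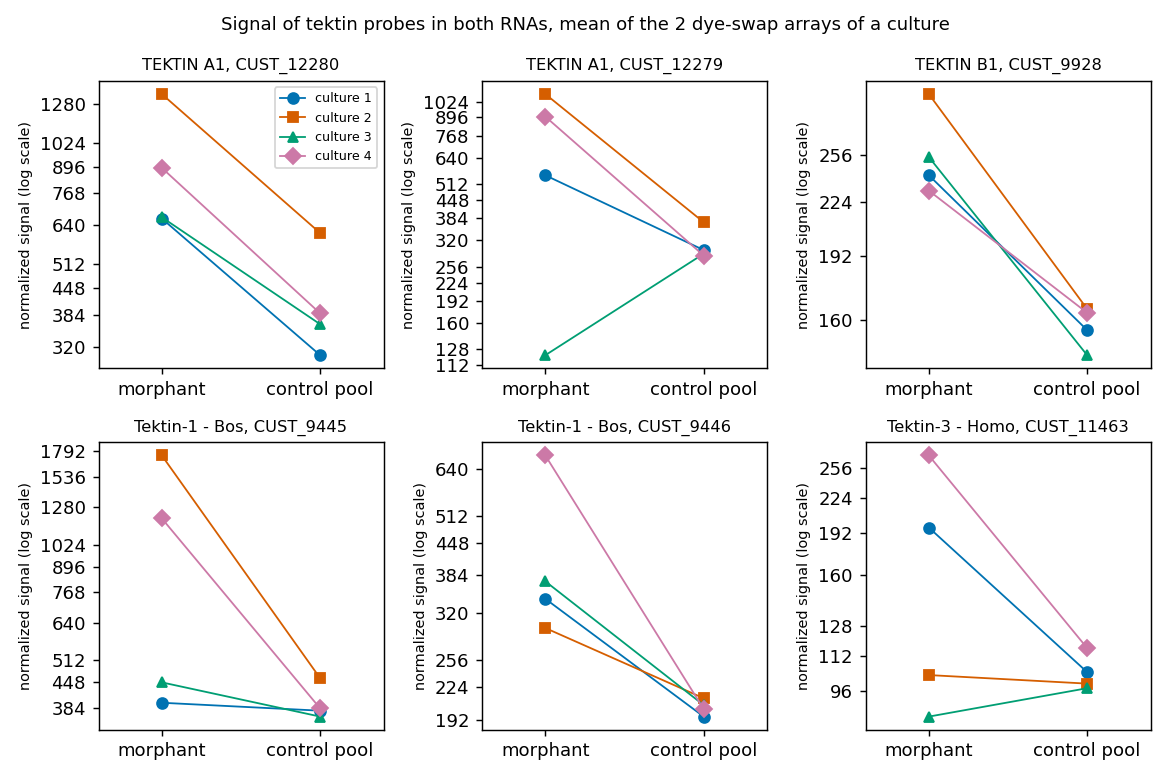
Normalized signal (log axis, a scale of its own in each panel) of 6 tektin probes in morphants (left) and in the control pool (right), 1 line for each culture, joining means of the 2 dye-swap arrays. The lines of CUST_12280 and CUST_9928 run down to the pool in all 4 cultures, and in CUST_12279 the line of culture 3 runs up, with 122 in the morphant against 285 in the pool.

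Tektin-B1 - S is the other B-type target, and its first probe reached the top of the scanner's range. The morphant signals of CUST_9119 were 38669, 42620, 48226 and 41655 in cultures 1 to 4, against 34357, 42788, 38077 and 36698 in the control pool. The groups overlapped. The morphant channel was saturated on 5 of 8 arrays and the control channel on 0 of 8, so the ratio of this probe is limited at its upper end. The log2 ratios were 0.17, -0.0057, 0.34 and 0.18, with a mean of 0.17 ± 0.14 (SD, n = 4; adjusted p = 0.191, limma, Benjamini-Hochberg). The probe also moved with the dye: the log2 ratio was 0.50 higher with the morphant in Cy5 than in Cy3 (adjusted p = 0.00567), an effect that 2.26% of all genes and 1 of 5 tektin targets had. With the morphant in Cy3 alone the mean was -0.079, and with the morphant in Cy5 alone it was 0.42.

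Its second probe, CUST_9120, was saturated on no array. The morphant signals were 19240, 30984, 35843 and 27150 in cultures 1 to 4, against 23400, 27524, 26008 and 22191 in the pool. Culture 1 stood below its pool value and the other cultures above theirs, with log2 ratios of -0.28, 0.17, 0.46 and 0.29. The mean was 0.16 ± 0.32 (SD, n = 4; adjusted p = 0.451 over all probes, limma), and the 95% interval of -0.21 to 0.53 included 0. Here the dye orientations differed by -0.0058 (adjusted p = 0.990), and the cultures differed (F test, adjusted p = 0.0123). The 95% interval of CUST_9119, -0.038 to 0.38, included 0 as well.

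**Figure D3:**
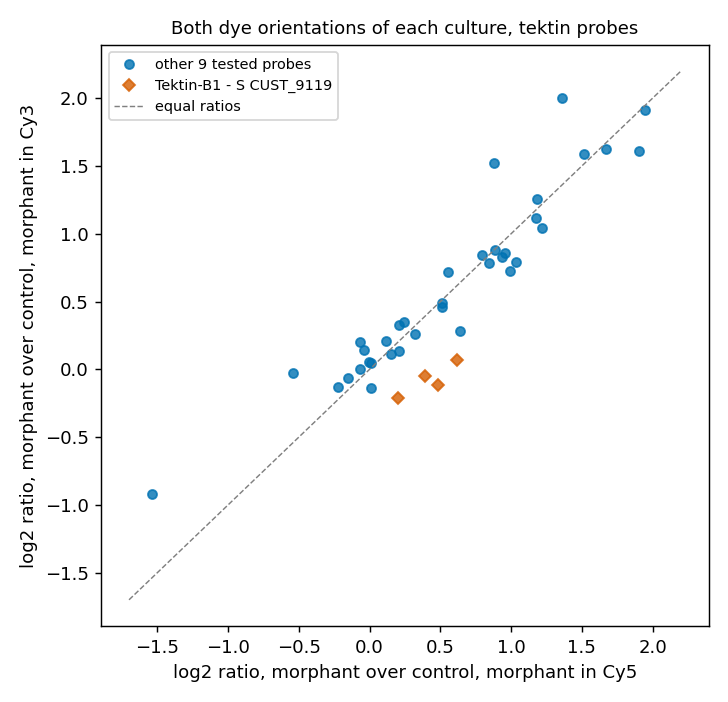
Log2 ratio of morphant over control with the morphant in Cy5 (x axis) and in Cy3 (y axis) for the 10 tested tektin probes, 1 point for each culture, with a line of equal ratios. The 4 points of Tektin-B1 - S CUST_9119 lie below the line, 0.50 apart on average, and culture 3 of TEKTIN A1 CUST_12279 is the point far below 0 on both axes.

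Tektin-1 - Bos had mean log2 ratios of 0.99 and 0.98 on its 2 probes, yet the cultures that gave those means differed between the probes. CUST_9445 had morphant signals of 396, 1748, 447 and 1198 in cultures 1 to 4, against 377, 459, 364 and 383 in the pool. Cultures 2 and 4 stood well above the pool, and the values of cultures 1 and 3 lay within the range of the pool. The log2 ratios were 0.069, 1.93, 0.30 and 1.65, with a mean of 0.99 ± 0.94 (SD, n = 4; 95% interval -0.022 to 1.99; adjusted p = 0.147, limma). The cultures differed far beyond the dye-swap error (F test, adjusted p = 3.76e-07).

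On CUST_9446 the morphant signals were 343, 298, 373 and 684 in cultures 1 to 4, against 195, 213, 206 and 202 in the pool. Every morphant lay above every reading of the pool, culture 4 highest. These too are repeat readings of 1 RNA, and the share of all probes with this pattern was not computed. The log2 ratios were 0.82, 0.49, 0.86 and 1.76, and their mean of 0.98 ± 0.55 (SD, n = 4) had a 95% interval of 0.38 to 1.58. It did not pass over all probes (adjusted p = 0.0687, limma; 0.00529 to 0.190 over the alternatives run, 5 of which passed). Culture 2 was thus the highest of the cultures on CUST_9445 and the lowest on CUST_9446, with a gap of 1.44 between its probes. On average the probes differed by 0.0047 ± 1.00 (exact sign-flip permutation test, two-sided, p = 1, also after adjustment over 7 pairs), in a test whose p cannot be under 0.125.

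Tektin-3 - Homo showed a split between cultures on its brighter probe and a ratio near 0 on the other. CUST_11463 had morphant signals of 197, 103, 85.8 and 270 in cultures 1 to 4, against 104, 99.2, 97.2 and 116 in the pool. Cultures 1 and 4 stood above the pool, culture 2 lay within its range and culture 3 below it. The log2 ratios were 0.92, 0.054, -0.18 and 1.22, with a mean of 0.50 ± 0.67 (SD, n = 4; 95% interval -0.23 to 1.23; adjusted p = 0.249, limma), and the cultures differed (F test, adjusted p = 5.05e-06). CUST_11464 ran from 74.3 to 77.8 in morphants and from 75.9 to 80.5 in the pool, and it was well above background on 7 and 6 of 8 arrays. Its log2 ratio was -0.045 ± 0.056 (SD, n = 4; adjusted p = 0.605 over all probes, limma). The brighter probe exceeded it by 0.55 ± 0.68 (exact sign-flip permutation test, two-sided, p = 0.375, adjusted to 0.875 over 7 pairs), in a test whose p cannot be under 0.125.

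Tektin-1 - Homo and Tektin-4 were not tested. Tektin-4 was well above background on no array in either RNA, with signals of 56.9 to 63.3 in morphants and 57.6 to 63.6 in the pool over its 2 probes. Tektin-1 - Homo ran from 57.2 to 72.9 in morphants and from 57.1 to 69.8 in the pool. Its probe CUST_4826 was well above background on 1 of 8 arrays in each RNA and its probe CUST_4825 on none. A difference in these targets was not detectable at this signal, and no fold is given.

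Over the probes, 9 of the 10 kept had a mean log2 ratio above 0. The same share over all 9563 kept probes was not computed. Among the 5481 genes tested, each by its brightest kept probe, 2530 had a mean above 0. Of the 10 kept tektin probes 5 were above 0 in all 4 cultures, against 23.4% of all probes. Both counts include CUST_9927, which was kept on its morphant signal alone. It was well above background on 4 arrays in the morphant and on 0 in the control, so it lends these counts no weight. The probes CUST_12280 and CUST_9928 passed over all 9563 probes (adjusted p of 0.0221 and 0.0332, limma), where 3.29% of probes were called higher and 2.03% lower. The cultures differed on 6 of 10 kept tektin probes, which is close to the 59.8% of all probes. A dye effect passed on 1 of the 10, against 2.01% of all probes. No single culture was the highest throughout the probes that stood for a target: culture 4 had the top ratio for TEKTIN A1 and Tektin-3 - Homo, culture 2 for TEKTIN B1 and Tektin-1 - Bos, and culture 3 for Tektin-B1 - S.

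TEKTIN A1 and TEKTIN B1 lay at a Euclidean distance of 0.90 from each other over their 4 culture ratios. Among 4709 named genes, those nearest to TEKTIN A1 by that distance were CYSTATIN B (0.315), GLUTAMATE RECEPTOR (0.322), U1 small (0.324), MAGO NASHI PROTE (0.338) and B CELL RECEPTOR ASS (0.375). Those nearest to TEKTIN B1 were GTP-binding n (0.155), MITOTIC PHOSPHOPROT (0.171), UB52 Ubiquitin prec (0.212), PRotein Associated wi (0.229) and PROBABLE CO (0.231). Neither set of 5 held another tektin or a member of the axoneme and tubulin lists. Those lists had 53 and 23 tested targets, few beside the 4709 genes searched, so their absence says little. The likeness is a description over 4 cultures that share the control pool.

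No other gene of the cilium lists passed the test. The axoneme and transport list takes in dyneins, of which those of the axoneme power ciliary beating. It also holds radial spoke proteins, which regulate beating, and intraflagellar transport proteins, which build the cilium. Its name patterns take in members that need not belong to the cilium as well, such as Cytoplasmic dynein and Flagellar hoo. Of its 70 targets 53 were tested, and 0 rose and 0 fell, against 2.96% and 2.04% of all genes (limma; 8 were higher and 10 lower at an unadjusted p under 0.05). Its median log2 ratio was -0.0059, against -0.025 over all genes, and 10 of the 53 (18.9%) were above 0 in all 4 cultures, near the 20.9% of all genes. The summed signal of the 53 was lower in morphants in 4 of 4 cultures, at 45210 to 66075 against 68135 to 70666 in the pool, a sum that its brightest members weigh most in. Under the other settings 0 to 7 of its members passed as higher and 0 to 9 as lower. RADIAL SPOKE PR came nearest to passing, with log2 ratios of 0.36, 0.96, 0.64 and 0.80 in cultures 1 to 4, a mean of 0.69 ± 0.26 (SD, n = 4) and an adjusted p of 0.0501 (limma). Its other probe had a mean of 0.83. Dynein intermed, a dynein intermediate chain by its shortened name, had a mean of -0.60 ± 0.22 (SD, n = 4; adjusted p = 0.0521, limma).

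Tubulins form the doublets to which tektin filaments are bound, and 23 of 27 tubulin targets were tested. Again 0 rose and 0 fell, against the same 2.96% and 2.04% of all genes (limma; 3 were higher and 3 lower at an unadjusted p under 0.05), with a median log2 ratio of 0.022. Their summed signal was higher in morphants in 4 of 4 cultures, at 113508 to 189673 against 112291 to 124421 in the pool. Tubulin alpha-1 had the smallest p, with a mean of -0.60 ± 0.28 (SD, n = 4; adjusted p = 0.0605, limma), and TUBULIN BETA 2 came next with 0.71 ± 0.39 (adjusted p = 0.0703). Tubulin tyrosine ligase adds a tyrosine to the end of alpha-tubulin, and 2 tested targets were taken for it by their shortened names. Both lay below 0, at -0.24 ± 0.093 and -0.72 ± 0.52 (adjusted p of 0.0900 and 0.103, limma). Their other probes had -0.18 and -0.016, so the lower value of the second target was not seen on its other probe. The ciliary motor KINESIN II, which carries cargo outwards in intraflagellar transport, had a log2 ratio of 0.21 ± 0.43 (adjusted p = 0.442, limma). It was found after its spelling on the array had been seen.

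**Figure D4:**
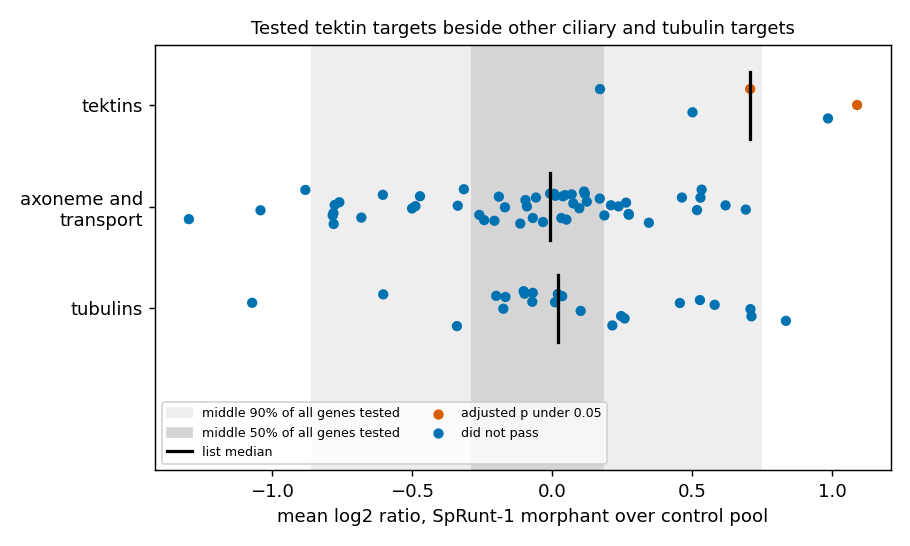
Mean log2 ratio of morphant over control (x axis) for the tested tektin targets and the tested members of the axoneme and transport list and the tubulin list, 1 point for each target, over grey bands for all genes tested. The black lines mark medians of 0.71 for tektins, -0.0059 for axoneme and transport and 0.022 for tubulins, and the 2 orange points are TEKTIN A1 and TEKTIN B1.

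FoxJ1 is known in vertebrates as a regulator of genes for motile cilia, and the array has 2 targets named Sp-FoxJ, a name that does not say which FoxJ gene is meant and that was added to the lists after it was seen. Their log2 ratios in cultures 1 to 4 were -0.32, 1.01, 1.87 and 1.02 for the first and 0.95, -0.57, -0.00072 and -0.41 for the second. Culture 1 thus differed in sign from culture 2 on both, in opposite directions. The means were 0.89 ± 0.91 and -0.0063 ± 0.68 (SD, n = 4; adjusted p of 0.160 and 0.990, limma).

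Of the markers of stage and cell type few passed the test, and their counts stand beside 2.96% of all genes that rose and 2.04% that fell. Of 7 tested hatched blastula targets 1 rose, a target named SPAN protein, SPAN being a secreted protease of the blastula. It had 2.01 ± 0.68 (SD, n = 4, adjusted p = 0.0416, limma) and 1.37 on its other probe. The other targets named SPAN had 1.29, 1.27, 0.61 and -0.0038, and none passed (adjusted p of 0.0563, 0.0588, 0.0672 and 0.979, limma). Their other probes had 0.37, 0.34, -0.00016 and -0.040. The summed signal of the 7 hatched blastula targets was 47667 to 95568 in morphants against 24512 to 34422 in the pool. In this sum and those below the brightest members weigh most, and how often other sets of genes differ as much was not computed. The hatching enzyme target 50 kDa hatching en, of the same list, had -0.72 ± 0.59 (adjusted p = 0.120). The 4 targets of the apical plate list, the region with the long cilia, had 0 calls (limma, with 1 higher at an unadjusted p under 0.05). Their summed signal was 1240 to 2304 in morphants against 1045 to 1099 in the pool. In that list 2 are the Sp-FoxJ targets given above, whose own sum was 533 to 1336 against 433 to 476. The others, Dp-Hbn and Sp-Nk2, had 0.43 ± 0.37 and -0.28 ± 0.55 (adjusted p of 0.136 and 0.421, limma). Of 23 targets in the aboral ectoderm list 0 rose and 1 fell, ARYLSULFATASE B at -1.51 ± 0.51 (adjusted p = 0.0430, limma). That list takes in every target named arylsulfatase, whether or not it marks aboral ectoderm. The 2 targets named ARYLSULFATASE PR had -0.30 ± 0.53 and 0.16 ± 0.73 (adjusted p of 0.362 and 0.729, limma). SPEC 2C protein had 0.83 ± 0.36 and SPEC 2A PROTEIN 0.80 ± 0.44 (adjusted p of 0.0539 and 0.0678). The aboral list had 4 members higher and 2 lower at an unadjusted p under 0.05 and a median log2 ratio of -0.011, and its summed signal of 49249 to 92691 in morphants overlapped that of the pool, 58402 to 61577. Of 2 skeletogenic targets 1 fell, Sp-P19 at -0.76 ± 0.23 (adjusted p = 0.0441), and their summed signal was 6735 to 9430 in morphants against 11527 to 13644 in the pool. The 2 pigment cell and 3 endomesoderm targets had 0 calls (limma; 1 of each list had an unadjusted p under 0.05), with summed signals of 274 to 1914 and 1142 to 2211 in morphants against 1107 to 1273 and 1698 to 1863 in the pool. No target of these lists was at background in morphants on all arrays among those tested, which had been kept for signal in either RNA. The part of stage and cell makeup in the ratios of TEKTIN A1 and TEKTIN B1 was not tested.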

How the data were processed

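RNA was amplified from oligo dT, labelled and hybridised on 8 two-colour arrays, per the labels' protocols. The submitters' processing notes name Agilent Feature Extraction, version 10.7.1.1, as the source of the scanner files. They hold mean and background intensities that are not normalized, per the file headers. They also hold log10 ratios of Cy5 over Cy3 after the software's own background and dye steps, per the file headers. The deposited values of the authors are log2 ratios, already turned to morphant over control; compared with the scanner values (r of 0.971 to 0.993), their array medians are 0.000503 to 0.0248, and their making is not given in the sources used here.

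In R 4.3.3 with limma 3.58.1 (files read with data.table, version 1.17.8), intensities were corrected with normexp (offset 50) and normalized by loess, with weight 0 for 536 control spots. Signs were set to morphant over control, and the dye-swap arrays of a culture were averaged. Of all probes 9563 were kept, those that 4 or more arrays showed well above background in either channel, and the brightest kept probe stood for a gene. The test of a log2 ratio against 0 used limma's lmFit and eBayes, with Benjamini-Hochberg adjustment and a threshold of 0.05; intervals are moderated 95% intervals. Culture and dye were tested on all 8 arrays, where the error is that between dye-swap arrays. Signals of each channel were taken after loess and Aquantile scaling and averaged over the arrays of a culture. A loess ratio is relative to other genes of like brightness. The number of arrays limits the precision.

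Genes are named by the array files; the gene table of assembly Spur_5.0 gave no tektin name, and no sequence or coordinate was used. The text names every tektin target and both probes, of the axoneme, tubulin and kinesin lists those that passed or else those with the smallest p, the 5 nearest genes to each tektin that rose, and Runt. Genes outside that rule were chosen after their values were seen. The members and lists were chosen with earlier results of these data known, and lists were found by name patterns, which miss shortened names and take in chance matches. Tests were checked on simulated data. The alternatives tried were other background and scaling steps, filters and probe rules, each dye orientation alone, the authors' own values, a random block for culture, variance trends, and each culture left out.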

Additional observations from a re-analysis of the deposited data

How the results depend on the processing

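The 19 other settings all drew on the same 8 arrays, and those with each dye orientation alone or with a culture left out used only part of them. Those that changed only the filter, the variance model or the scaling of average intensities left the ratios unchanged, so no sign could differ there. Over the 19 settings, 93 of 95 mean ratios of the 5 tested tektin targets were above 0. The exceptions were Tektin-3 - Homo at -0.045 with the dimmer probe of each target, and Tektin-B1 - S, on probe CUST_9119, at -0.079 with the morphant in Cy3; the cause was not tested. TEKTIN A1 did not pass with the mean of its probes (0.91) or with the dimmer probe (0.73), and its ratio was 1.05 to 1.16 with each culture left out. TEKTIN B1 did not pass with median centring (1.19) or with the dimmer probe (0.15), was 0.43 with the mean of its probes, where it passed, and its ratio was 0.65 to 0.78 with each culture left out. A variance trend on the mean ratio with robust variances, chosen after seeing the data, left the ratios of TEKTIN A1 and TEKTIN B1 at 1.09 and 0.71, and neither passed (adjusted p = 0.113 each). Tektin-1 - Bos passed with culture as a random block over 8 arrays (0.99, adjusted p = 0.0285).

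The number of tektin targets that passed was 2, against 1 with median centring, 1 with the mean of probes, 0 with the dimmer probe (limma; 1 at an unadjusted p under 0.05), 0 with the trend on the mean ratio (3 at an unadjusted p under 0.05) and 0 to 2 with each culture left out (2 or 3 at an unadjusted p under 0.05). Of all genes 274 passed, against 689 with plain background subtraction, 839 with Agilent's own log ratio, 56 with median centring, 180 with no filter on dim probes, 448 with probes above background in both channels on all arrays, 580 with the authors' table, 1444 with the random block, 709 with a trend on average intensity and robust variances, 0 with the trend on the mean ratio (limma; 2045 at an unadjusted p under 0.05), and 0 to 887 with each culture left out (limma; 1219 and 1346 at an unadjusted p under 0.05 where 0 passed). The split of 162 higher and 112 lower became 49 and 7 with median centring and 355 and 532 without culture 1. Median centring moved the median log2 ratio of all genes to 0.10, and background subtraction and Agilent's ratio moved it to -0.11. Probes near background, CUST_9927 and those of Tektin-1 - Homo and Tektin-4, are limited by their signal.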
